A study of Rattus norvegicus with 17 samples.

Results

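The H3K4me3 peaks of 2 stages of the rat oligodendrocyte lineage were compared, immature oligodendrocytes (iOL) against the oligodendrocyte precursor cells (OPC) they are derived from. All peaks of both lists were taken, 10467 of iOL and 11758 of OPC, which is 22225 of the 189320 peaks in the 17 lists of the study. A peak was called kept where it shared at least 1 bp with an H3K4me3 peak of the other stage. An iOL peak without such a partner was called gained, and an OPC peak without one was called lost. The names describe the lists and not a measured change of signal, since each stage had 1 library and no test between stages could be made.

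Both stages were primary cells from wild-type Sprague-Dawley rats, isolated from the cortex at postnatal day 2 and purified by differential detachment. The iOL library is labelled as T3-treated, and the differentiation medium held thyroid hormone T3 at 15 nM and ciliary neurotrophic factor at 10 ng/ml. The OPC library is labelled as mitogen-treated, and the growth medium held PDGF-AA at 10 ng/ml and bFGF at 20 ng/ml. The sources used here give no time in culture. The growth protocol calls the isolated cells iOLs, and the stages are named here as the samples are titled. Chromatin from sonicated nuclei was precipitated with an antibody to H3K4me3 and sequenced on the SOLiD platform. The deposited values are peak positions in rat genome build rn4, without scores or read numbers, and the depth of the libraries is therefore unknown. Gene annotation of that build was not used here, so the cells were not checked against marker genes and positions are given without gene names.

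Histone H3 trimethylated at lysine 4 marks the start sites of genes that are active or poised, where SET1 and MLL complexes deposit it on the nucleosomes flanking the start. The start site itself is often depleted of nucleosomes, so that 1 promoter can give a pair of adjacent H3K4me3 peaks with a dip between them. H3K27Ac, acetylation of lysine 27 by CBP and p300, marks active promoters and enhancers, and RNA polymerase II (RNAPII) is loaded at the start site. In this lineage Olig2 is a bHLH transcription factor needed for oligodendrocyte formation, and Brg1 is an ATPase of the SWI/SNF chromatin remodelling complexes. Thyroid hormone makes precursors stop dividing and differentiate.

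Most H3K4me3 peaks were present at both stages, and the peaks present at 1 stage were narrow. Of the iOL peaks, 871 or 8.32% (7.80 to 8.87) were gained and 9596 or 91.7% were kept. Of the OPC peaks, 2024 or 17.2% (16.5 to 17.9) were lost and 9734 or 82.8% were kept. Ranges in parentheses after a share are exact Clopper-Pearson 95% intervals, which cover counting error of the peaks and no difference between cultures. Joining peaks that overlap across the stages gave 12128 regions, of which 9233 or 76.1% (75.4 to 76.9) carried H3K4me3 at both stages. Gained peaks covered 0.588 Mb against 9.86 Mb for kept iOL peaks, and lost peaks covered 1.28 Mb against 10.1 Mb for kept OPC peaks. The groups that met no partner were thus a smaller share of the marked sequence than of the peaks.

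The 2 lists differed in length. The iOL list covered 10.5 Mb with a median peak width of 864 bp, and the OPC list covered 11.3 Mb with a median of 835 bp. The higher share of lost than of gained peaks goes with the longer OPC list, and the part of list length in it was not tested. When the OPC list was shortened to its 10467 widest peaks, to equal the iOL list, 1386 iOL peaks (13.2%) and 1385 OPC peaks (13.2%) had no partner. Near-equal numbers follow from equal lists with mostly one-to-one matching, so this setting does not show where the excess of lost peaks in the whole lists comes from.

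The groups differed in width, with overlapping ranges. Gained peaks had a median width of 627 bp (quartiles 526 and 756 bp), against 894 bp (683 and 1223 bp) for kept iOL peaks. Lost peaks had a median width of 572 bp (quartiles 480 and 727 bp), against 902 bp (686 and 1233 bp) for kept OPC peaks. The widest gained peak measured 2362 bp and the widest lost peak 2434 bp, while kept peaks reached 6481 bp in iOL and 6857 bp in OPC. No H3K4me3 peak wider than 2434 bp was thus found at 1 of the 2 stages alone.

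Each list was cut by width into 4 classes of equal size, and the share without a partner was lower in each wider class. In iOL, 18.8% (17.3 to 20.4) of the narrowest class were gained, 9.36% of the second, 4.01% of the third and 1.11% (0.743 to 1.59) of the widest. In OPC, 41.4% (39.6 to 43.2) of the narrowest class were lost, 16.9% of the second, 7.83% of the third and 2.72% (2.16 to 3.38) of the widest. A wider peak has more bases in which a partner can be met, and the part of this in the trend was not tested. The share of lost peaks exceeded that of gained peaks in every class. The lists were also deposited in an order that largely follows width, from wide to narrow. The Spearman correlation of width and file position was -0.89 over the 10467 peaks of iOL, with the same rounded value over the 11758 peaks of OPC. The sources used here do not say what that order means. The first of 4 equal portions of the file held 0.229% gained peaks in iOL and 0.578% lost peaks in OPC. The last portion of the file held 24.1% (22.5 to 25.8) gained peaks in iOL and 47.0% (45.2 to 48.9) lost peaks in OPC. The file position thus spread the lost and gained shares more widely than width did.

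**Figure D1:**
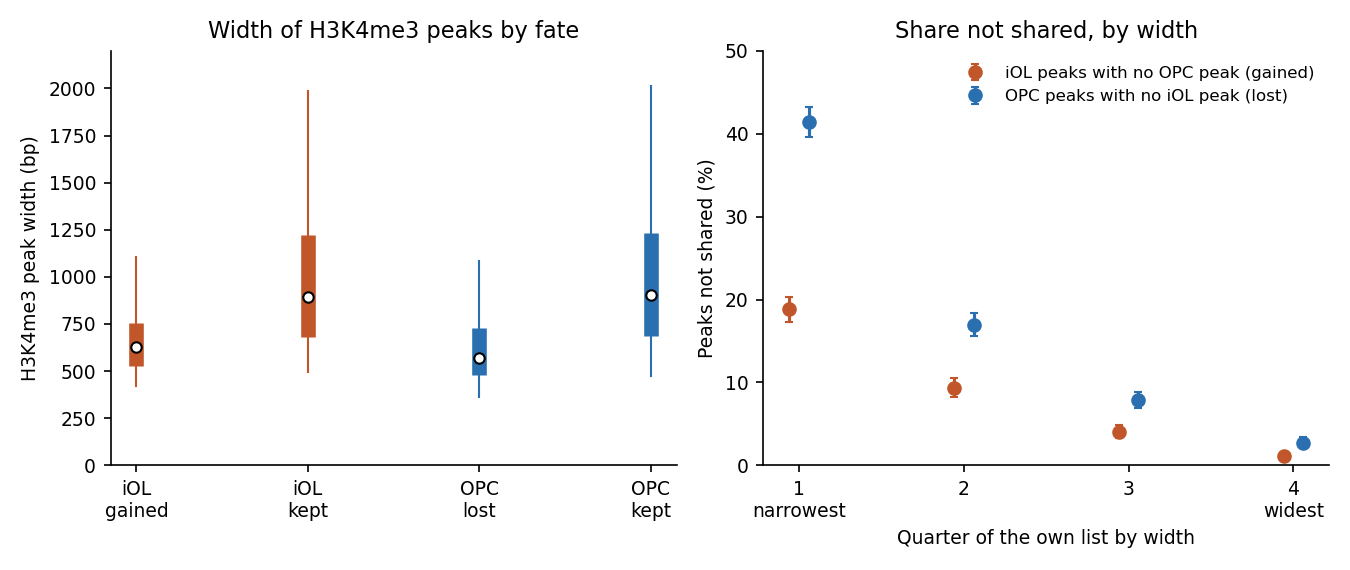
Width and fate of H3K4me3 peaks. The left panel gives peak width in bp (white point, median; box, quartiles; line, 5th to 95th percentile), with medians of 627 bp for gained and 894 bp for kept iOL peaks, and of 572 bp for lost and 902 bp for kept OPC peaks. The right panel gives the percentage of peaks with no partner at the other stage in each of 4 width classes of equal size (bars, exact 95% intervals), highest in the narrowest class at 18.8% in iOL and 41.4% in OPC.

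Few peaks sat near the 1 bp rule. Among iOL peaks, 45 gained peaks lay within 100 bp of an OPC peak, and 19 kept peaks shared 100 bp or less with one. Among OPC peaks, 103 lost peaks lay within 100 bp of an iOL peak, and 29 kept peaks shared 100 bp or less. More of the unmatched peaks lay in the wider surroundings of a peak of the other stage. An OPC peak lay within 2 kb of 367 gained peaks (42.1%, 38.8 to 45.5), and an iOL peak lay within 2 kb of 819 lost peaks (40.5%, 38.3 to 42.6). The remaining 504 gained and 1205 lost peaks stood apart from any H3K4me3 of the other stage. Those that stood apart were somewhat wider, with medians of 651.5 bp for gained and 598 bp for lost peaks, against 606 and 538 bp for gained and lost peaks within 2 kb.

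Lost and gained peaks were found on every chromosome of the lists. The gained share ran between 6.03% (19 of 315 peaks) on chromosome 13 and 11.6% (39 of 337) on chromosome 12. The lost share on assembled chromosomes ran between 14.8% (53 of 357) on chromosome 12 and 22.0% (76 of 346) on chromosome X. Chromosome 12 therefore had the highest gained and the lowest lost share. Its intervals were wide, 8.36 to 15.5% for gained and 11.3 to 19.0% for lost peaks, against 8.32% and 17.2% over all peaks. As it was picked as the extreme of all chromosomes, its shares are not shown to differ from the rest. On sequence not placed on a chromosome, 5 of 49 iOL peaks were gained and 20 of 65 OPC peaks (30.8%) were lost.

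H3K4me3 of the mature stage (mOL) was looked up at the same places. The mOL libraries are listed with the same differentiation medium as iOL, with T3 at 15 nM and ciliary neurotrophic factor at 10 ng/ml. An mOL H3K4me3 peak was present at 825 gained peaks (94.7%, 93.0 to 96.1) and at 1863 lost peaks (92.0%, 90.8 to 93.2), against 99.9% of kept peaks of either stage. The other 161 lost peaks thus had no H3K4me3 call at either later stage. Of the 1205 lost peaks that stood apart from iOL H3K4me3, 1067 (88.5%) met an mOL peak. The mOL list was longer than the others, with 17530 peaks over 20.0 Mb.

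At regions present at both stages the width was much the same. In 8480 of the 9233 shared regions (91.8%), 1 iOL peak met 1 OPC peak, and these one-to-one pairs were used to compare width. The median width was 880 bp in iOL and 902 bp in OPC. The median log2 ratio of iOL over OPC width was -0.02 (order-statistic 95% interval -0.03 to -0.02), with quartiles of -0.23 and 0.19. Across these pairs, which share their genomic position, log2 widths of the 2 stages had a Pearson correlation of 0.803 and widths a Spearman correlation of 0.771. The typical pair shared 81.9% of the length covered by either peak, and its centre lay 65 bp apart between stages (90th percentile 208.5 bp). Neither edge had moved on the whole: the median shift of the left and of the right edge was 2 bp inward in iOL.

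A width ratio of 1.5 or more marked the larger differences. By this rule 473 of 8480 pairs (5.58%) were wider in iOL and 514 (6.06%) narrower, and 88.4% lay within it. At least 2-fold differences numbered 79 pairs wider and 111 pairs narrower in iOL. Wider and narrower pairs were therefore close to balanced. In the 987 pairs past 1.5-fold, the difference sat mainly at 1 edge: the more shifted edge moved by a median of 424 bp and the other by 57 bp, and in 701 pairs (71.0%) over 75% of the shift was at 1 edge. Over all pairs the left and right shifts were uncorrelated (Pearson 0.00029 over 8480 pairs).

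Pairs were then classed by the stage at which either of their peaks met H3K27Ac, a rule that treats the iOL and the OPC peak alike. With H3K27Ac in iOL only (752 pairs), 60 or 7.98% (6.14 to 10.2) were at least 1.5 times wider in iOL and 40 or 5.32% (3.83 to 7.17) narrower. With H3K27Ac in OPC only (667 pairs), 38 or 5.70% (4.06 to 7.74) were wider in iOL and 70 or 10.5% (8.27 to 13.1) narrower. Past 1.5-fold, narrower pairs thus outnumbered wider ones with acetylation in OPC only, while the intervals of the wider and narrower shares overlapped with acetylation in iOL only. With H3K27Ac at both stages (6133 pairs) the shares were 5.17% wider and 5.35% narrower, close to the shares over all pairs. With H3K27Ac at neither stage (928 pairs) they were 6.25% wider and 8.19% narrower. The median log2 width ratio was -0.01 with iOL acetylation only and -0.06 with OPC acetylation only, against quartile ranges many times as wide.

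The largest imbalance was at pairs that met Olig2 in OPC only. Of these 155 pairs, 3 (1.94%, 0.401 to 5.55) were at least 1.5 times wider in iOL and 19 (12.3%, 7.54 to 18.5) narrower. Their median width was 975 bp in iOL and 1115 bp in OPC, a median log2 ratio of -0.14 (-0.20 to -0.05). With Olig2 in iOL only (344 pairs), 6.98% were wider and 5.52% narrower, and the median widths were 1045 bp in iOL and 1052 bp in OPC. With Olig2 at both stages (262 pairs) the shares were 7.63% and 7.25%. The median log2 ratio was 0.013 (-0.020 to 0.046) with Olig2 in iOL only and 0.021 (-0.023 to 0.043) with Olig2 at both stages. With Olig2 at neither stage (7719 pairs) it was -0.024 (-0.031 to -0.017), so a slightly lower iOL width was also seen there. The ratio was lowest with Olig2 in OPC only. Whether Olig2 has a part in this difference was not tested. The Olig2 peaks themselves had median widths of 720 bp in iOL and 1312 bp in OPC.

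RNAPII classes showed smaller differences. Pairs with RNAPII at both stages (155) had median H3K4me3 widths of 1195 bp in iOL and 1070 bp in OPC, with 10 pairs wider and 4 narrower by 1.5-fold. Pairs with RNAPII in iOL only (821) had 1054 bp in iOL and 1062 bp in OPC, with 33 wider and 40 narrower. Pairs with RNAPII in OPC only (67) had 1235 bp in iOL and 1152 bp in OPC, with 4 wider and 1 narrower. Pair by pair, the median log2 width ratio was 0.0075 (-0.039 to 0.046) with RNAPII at both stages. It was -0.0086 (-0.031 to 0.013) with RNAPII in iOL only and 0.045 (0.012 to 0.098) in OPC only. A call of RNAPII in iOL alone thus did not come with wider H3K4me3 in iOL. With Brg1 in iOL only (196 pairs), 6.63% were wider and 7.65% narrower in iOL.

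**Figure D2:**
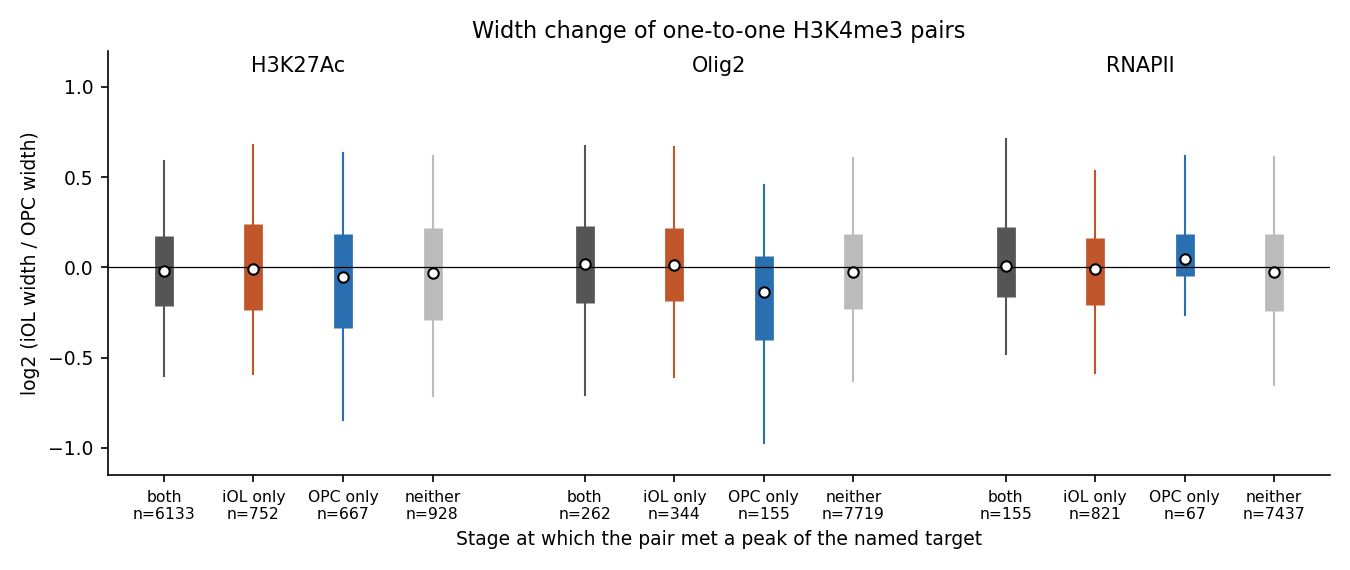
Width change of one-to-one H3K4me3 pairs by the stage at which the pair met H3K27Ac, Olig2 or RNAPII. The y axis is log2 of iOL over OPC width (white point, median; box, quartiles; line, 5th to 95th percentile), with the number of pairs under each class. Medians lie between -0.06 and 0.04 except for Olig2 in OPC only, at -0.14.

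The 3 pairs with the greatest difference in bp in each direction met no RNAPII at either stage. The greatest gain was at chr14:76408884-76411640, where the iOL peak measured 2757 bp and the OPC peak 938 bp, a difference of 1819 bp. The widest H3K27Ac peak met there measured 1761 bp in iOL and 668 bp in OPC. At chr13:45282066-45284152 the iOL peak of 2087 bp compared with 429 bp in OPC, and the H3K27Ac peaks were of similar width, 4065 bp in iOL and 3810 bp in OPC. At chr1:69481477-69483389 the iOL peak of 1913 bp compared with 476 bp in OPC. The widest H3K27Ac peak there measured 1047 bp in iOL and 823 bp in OPC. Acetylation was thus present at both stages at all 3 regions of greatest gain, and its widest peak was wider in iOL at each.

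The greatest loss of width was at chr18:31542508-31547105, where the iOL peak measured 1754 bp and the OPC peak 4598 bp, a difference of -2844 bp. H3K27Ac there was also narrower in iOL, with a widest peak of 666 bp in iOL and 3228 bp in OPC. At chr12:8551425-8553835 the H3K4me3 peak measured 571 bp in iOL and 2411 bp in OPC, and H3K27Ac was called in OPC only (widest peak 525 bp). At chr1:135025174-135027492 the H3K4me3 peak measured 573 bp in iOL and 2319 bp in OPC, and the widest H3K27Ac peak 632 bp in iOL and 1508 bp in OPC. In all 3 of these regions H3K27Ac was narrower or uncalled in iOL. Each of them held H3K4me3 in mOL, where the widest peak measured 5106, 1980 and 1594 bp in that order.

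A shared region was sometimes 1 peak at 1 stage and several at the other. Of the shared regions, 403 (4.36%, 3.96 to 4.80) held fewer peaks in iOL than in OPC, and 262 (2.84%, 2.51 to 3.20) held more. The commonest forms were 1 iOL peak over 2 OPC peaks, in 396 regions, and 2 iOL peaks over 1 OPC peak, in 253. Joined iOL peaks, those meeting several OPC peaks, numbered 496 or 5.17% (4.73 to 5.63) of kept iOL peaks, with a median width of 1506.5 bp. Split OPC peaks, those meeting several iOL peaks, numbered 355 or 3.65% (3.28 to 4.04) of kept OPC peaks, with a median width of 1576 bp. Joined and split peaks were therefore wider than the kept peaks as a whole. This direction follows from the rule, since such a peak has to reach several peaks of the other stage. Joining exceeded splitting with whole lists, but with equal-number lists joined iOL peaks were 3.99% and split OPC peaks 3.90%.

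The widest joined and split peaks were looked at singly. At chr8:10160174-10165493 a single iOL peak of 5320 bp covered 3 OPC peaks of 1370, 1647 and 1740 bp, and both stages had H3K27Ac, RNAPII and Olig2 there. At chr1:44922946-44929608 an iOL peak of 5162 bp met OPC peaks of 4857 and 1518 bp, and the region held 4 Brg1 peaks in iOL and 1 in OPC. At chr2:132886761-132893873 the reverse was seen, with iOL peaks of 2488, 2759 and 1712 bp over a single OPC peak of 6857 bp. At chr2:120969444-120974926 iOL peaks of 1632 and 3718 bp met an OPC peak of 5204 bp, under H3K27Ac peaks of 13513 bp in iOL and 13478 bp in OPC. At chr2:12257170-12266812 the boundaries were staggered: iOL peaks of 4704, 3343 and 500 bp overlapped OPC peaks of 3255 and 6340 bp, so the same region counted as joined and as split. The mOL list held 1 peak over each of these 5 regions.

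Adjacent peaks were common within each list. A neighbour of the same list lay within 2 kb of 4659 iOL peaks (44.5%, 43.6 to 45.5) and of 5879 OPC peaks (50%, 49.1 to 50.9). This gave 2452 neighbouring pairs in iOL, with a median gap of 270 bp, and 3138 in OPC, with a median gap of 266 bp. Having a neighbour did not separate lost from kept peaks by much: 40.0% of gained against 44.9% of kept iOL peaks had one, and 47.4% of lost against 50.5% of kept OPC peaks.

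Most neighbouring pairs were found again as a pair. Of the iOL pairs, 1753 (71.5%) were matched by separate OPC peaks, 363 (14.8%) lay in 1 OPC peak, 315 (12.8%, 11.5 to 14.2) had 1 matched member and 21 (0.856%) had none. Of the OPC pairs, 1737 (55.4%) were matched by separate iOL peaks, 501 (16.0%) lay in 1 iOL peak, 773 (24.6%, 23.1 to 26.2) had 1 matched member and 127 (4.05%) had none. An OPC pair was thus more often reduced to 1 member in iOL than an iOL pair was in OPC, and the lengths of the lists differ in the same direction. Pairs lying in 1 peak of the other stage had narrow gaps, with medians of 71 bp for iOL pairs and 77 bp for OPC pairs. The medians were 332 and 325 bp for iOL and OPC pairs matched as separate peaks. The rule itself favours narrow gaps in the first class, since 1 peak has to span the gap.

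Where only 1 member was matched, it was mostly the wider one. In OPC pairs the wider member was the one kept in 628 of 773 pairs (81.2%, 78.3 to 83.9), and the median width was 536 bp for lost and 883 bp for kept members. In iOL pairs the wider member was the one kept in 242 of 315 pairs (76.8%, 71.8 to 81.4), and the median width was 609 bp for gained and 839 bp for kept members. The narrower member of a pair was therefore the one usually missing from the other list. A wider member also has more bases in which a partner can be met, and the part of this was not tested.

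**Figure D3:**
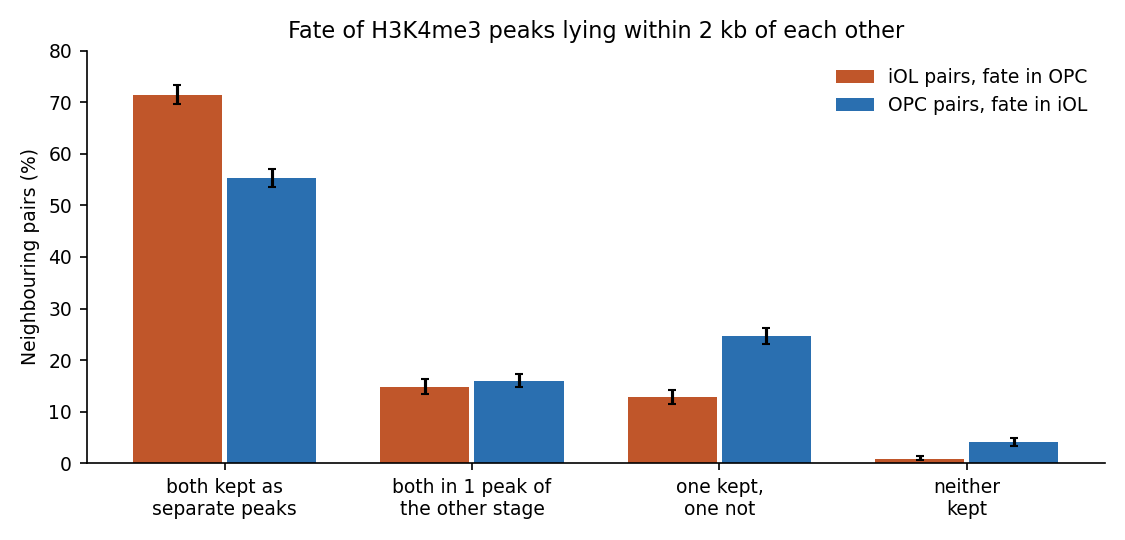
Fate of neighbouring H3K4me3 peaks. Bars give the percentage of neighbouring pairs (same list, gap up to 2 kb) in each class at the other stage, with exact 95% intervals, for 2452 iOL pairs and 3138 OPC pairs. Pairs with 1 matched member made up 12.8% of iOL and 24.6% of OPC pairs.

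To remove the effect of such small gaps, peaks of a list were joined across gaps of up to 2 kb into stretches, 8015 in iOL and 8620 in OPC. Of the iOL stretches 541 (6.75%, 6.21 to 7.32) met no OPC stretch, and of the OPC stretches 1153 (13.4%, 12.7 to 14.1) met no iOL stretch. Nearly all of these were single peaks. In iOL, 523 of 5808 single-peak stretches (9.00%) were gained, 18 stretches of 2 peaks (0.900%), and 0 of 206 stretches of 3 or more, which allows a share of up to 1.46%. In OPC, 1065 of 5879 single-peak stretches (18.1%) were lost, 81 of 2415 stretches of 2 peaks (3.35%) and 7 of 326 stretches of 3 or more (2.15%).

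The number of peaks in matched stretches was mostly the same. Among 7448 stretches matched one to one, 5887 (79.0%) had the same number of peaks, 1053 (14.1%, 13.4 to 15.0) had fewer in iOL and 508 (6.82%, 6.26 to 7.42) had more. The commonest difference was 1 iOL peak in place of 2 OPC peaks, in 845 stretches, against 421 stretches with 2 iOL peaks in place of 1. Stretches with fewer iOL peaks were also narrower in iOL, with a median log2 width ratio of -0.70, and those with more were wider, with a median of 0.54. The median over stretches of equal peak number was -0.02. A lower number of peaks thus went with a narrower stretch, a direction that follows from how stretches are built. Stretches of 1 peak had median widths of 939 bp in iOL and 912 bp in OPC. Stretches of 2 peaks had medians of 2034 and 1989 bp.

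H3K27Ac was less frequent at gained and lost peaks than at kept peaks, at both stages. Of gained peaks, 48.6% (45.2 to 51.9) met H3K27Ac of iOL and 45.0% (41.7 to 48.4) met H3K27Ac of OPC. Of kept iOL peaks, 81.7% and 81.0% met H3K27Ac of iOL and of OPC. Of lost peaks, 37.2% (35.0 to 39.3) met H3K27Ac of iOL and 40.6% (38.4 to 42.7) met H3K27Ac of OPC. Of kept OPC peaks, 81.5% and 81.0% met H3K27Ac of iOL and of OPC. Between stages the acetylated share of gained and of lost peaks thus differed by only a few percentage points, higher in the stage that had the H3K4me3 peak. The iOL H3K27Ac list was the longer, 21589 peaks against 19130 in OPC. With the 19130 widest iOL peaks, H3K27Ac of iOL was met by 39.8% of gained, 30.4% of lost and 76.1% of kept OPC peaks, so for gained peaks the order of the stages was turned round. With the wider 50% of each H3K4me3 list, which also counts as unmatched the peaks whose partner is in the narrower 50%, H3K27Ac of iOL was met by 78.1% of gained and 69.7% of lost peaks, against 90.9% of kept OPC peaks, a smaller gap.

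Acetylation at 1 stage alone was the less common state. Among gained peaks, 15.2% (12.8 to 17.7) were acetylated in iOL only, 11.6% (9.54 to 13.9) in OPC only, 33.4% at both stages and 39.8% at neither. Among lost peaks, 9.29% (8.06 to 10.6) were acetylated in iOL only, 12.7% (11.3 to 14.2) in OPC only, 27.9% at both stages and 50.1% at neither. Among kept OPC peaks, 8.39% were acetylated in iOL only, 7.89% in OPC only, 73.1% at both and 10.6% at neither. Lost peaks thus differed from kept peaks mainly in having H3K27Ac at neither stage in place of both.

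Read the other way, the lost share followed the acetylation state within every width class. Of OPC peaks acetylated at neither stage, 49.5% (47.3 to 51.7) were lost, against 18.7% (16.3 to 21.3) with H3K27Ac in iOL only, 25.1% (22.4 to 27.8) in OPC only and 7.35% (6.77 to 7.95) at both stages. In the narrowest class the lost shares were 64.5% for neither stage, 34.5% for iOL only, 41.9% for OPC only and 24.1% for both. In the widest class they were 18.2% for neither stage (22 of 121 peaks), 5.95% for iOL only (5 of 84), 13.2% for OPC only (25 of 189) and 1.10% for both. The 4 states were thus ranked alike in the narrowest and in the widest class, highest for neither stage and lowest for both. The gained share ran from 25.7% (23.4 to 28.1) of iOL peaks acetylated at neither stage, through 13.9% in iOL only and 11.8% in OPC only, to 3.98% at both.

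Nearness to H3K4me3 of the other stage went with acetylation. Lost peaks with an iOL H3K4me3 peak within 2 kb met H3K27Ac of iOL in 51.9% and of OPC in 52.5% of cases. Lost peaks that stood apart met H3K27Ac of iOL in 27.1% (24.6 to 29.7) and of OPC in 32.4% (29.8 to 35.2). Gained peaks within 2 kb of OPC H3K4me3 met H3K27Ac of iOL in 62.1% and of OPC in 56.4% of cases, and gained peaks that stood apart in 38.7% and 36.7%. Isolated lost and gained peaks were thus the least acetylated. In mOL, H3K27Ac was met by 74.5% of gained and 60.3% of lost peaks, against 94.0% of kept peaks of either stage, in a list of 35268 peaks.

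**Figure D4:**
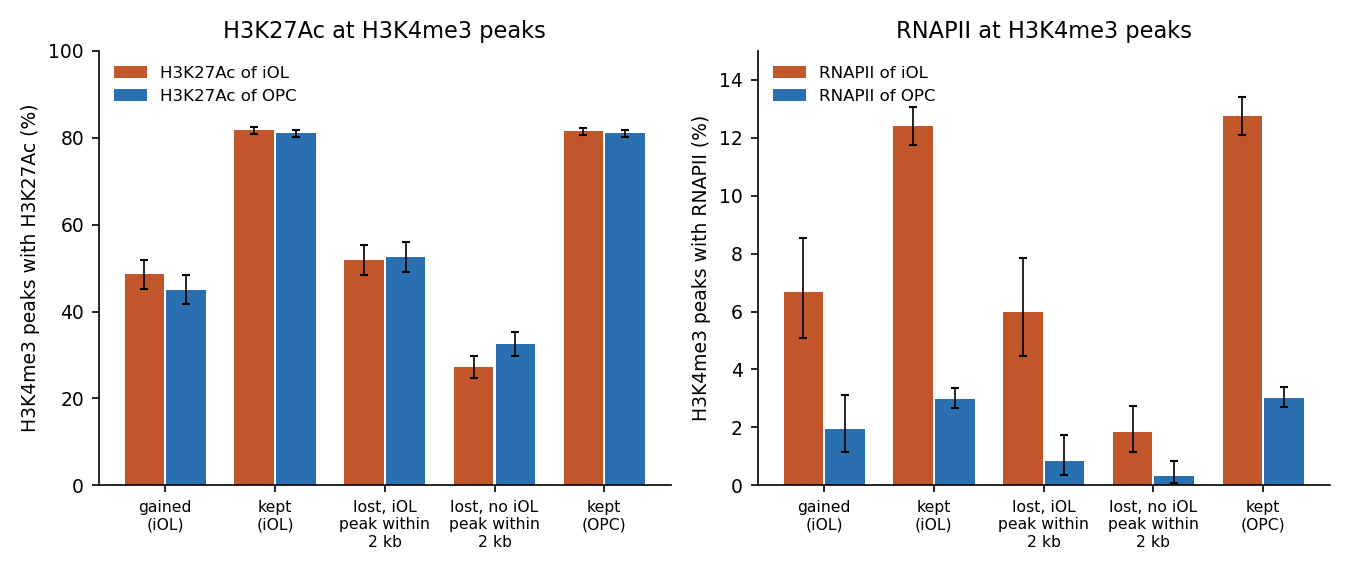
H3K27Ac and RNAPII at H3K4me3 peaks by fate. Bars give the percentage of peaks in each group that met a peak of the named mark in iOL or in OPC, with exact 95% intervals. H3K27Ac is near 81% at kept peaks and lowest, 27.1% of iOL and 32.4% of OPC, at lost peaks with no iOL H3K4me3 within 2 kb; the RNAPII lists differ in length, with 1425 peaks in iOL and 332 in OPC.

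RNAPII followed the same order of groups. RNAPII of iOL was met by 6.66% (5.09 to 8.52) of gained and 12.4% (11.7 to 13.1) of kept iOL peaks, and by 3.51% (2.75 to 4.40) of lost and 12.7% (12.1 to 13.4) of kept OPC peaks. RNAPII of OPC was met by 1.95% (1.14 to 3.11) of gained and 2.99% of kept iOL peaks, and by 0.543% (0.272 to 0.970) of lost and 3.03% of kept OPC peaks. Over all widths, RNAPII of both stages was thus called less often at lost than at gained peaks, and most often at kept peaks. In the wider classes of iOL peaks gained and kept peaks were alike: RNAPII of iOL was met by 13 of 105 gained peaks (12.4%, 6.76 to 20.2) against 11.7% of kept peaks in the third class, and by 6 of 29 (20.7%, 7.99 to 39.7) against 19.8% in the widest. The RNAPII lists held 1425 peaks in iOL and 332 in OPC, and a place without a call may still hold the protein. With the 332 widest iOL RNAPII peaks, the shares were 2.07% of gained, 0.692% of lost and 3.05% of kept iOL peaks, close to those with the OPC list.

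Lost peaks with RNAPII lay mostly within 2 kb of iOL H3K4me3. RNAPII of iOL was met by 49 of the 819 lost peaks with iOL H3K4me3 within 2 kb (5.98%, 4.46 to 7.83) and by 22 of the 1205 that stood apart (1.83%, 1.15 to 2.75). RNAPII of OPC was met by 7 of the 819 (0.855%) and by 4 of the 1205 (0.332%). The share was higher at wider kept peaks but not at wider lost peaks. RNAPII of iOL was met by 2 of 80 lost peaks in the widest class (interval 0.304 to 8.74%) against 18.8% of kept OPC peaks there, and by 3.45% of lost peaks in the narrowest class against 9.40% of kept OPC peaks. The wide lost peaks were thus nearly free of RNAPII calls.

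Olig2 stood out at the wide lost peaks. In the widest class of OPC peaks, Olig2 of iOL was met by 13 of 80 lost peaks (16.3%, 8.95 to 26.2) and Olig2 of OPC by 15 (18.8%, 10.9 to 29.0), against 11.2% and 8.64% of kept peaks. In the narrowest class the shares were 4.44% and 3.62% of lost against 4.76% and 3.02% of kept peaks, for Olig2 of iOL and of OPC. Over all widths, Olig2 of iOL was met by 5.88% of lost and 7.32% of kept OPC peaks, and Olig2 of OPC by 5.58% and 5.05%. Among the 29 gained peaks of the widest iOL class, 10 met Olig2 of iOL (34.5%, 17.9 to 54.3) and 3 met Olig2 of OPC (10.3%), against 12.1% and 8.89% of kept iOL peaks. Wide peaks found at 1 stage thus met Olig2 of that same stage more often than kept peaks of like width did, in groups of 80 and 29 peaks.

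Brg1 of iOL was met by 1.61% of gained, 1.78% of lost and 2.37% of kept iOL peaks, with overlapping intervals. H3K9me3, a mark of silenced chromatin, was met by at most 4 of 2024 lost peaks (OPC list, 0.198%) and 1 of 871 gained peaks at either stage. H3K9me3 of OPC was met by 9 of 9734 kept OPC peaks (0.0925%), so few H3K4me3 peaks of any group met a call of the mark. The H3K9me3 lists were short, with 3149 peaks over 3.85 Mb in OPC and 827 peaks over 0.639 Mb in iOL. The share that places elsewhere in the genome would meet was not computed, so the low counts cannot be read as a trait of H3K4me3 peaks.

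In the dips between paired peaks, RNAPII was called about as often as on the flanking peaks, and H3K27Ac much less often than on them. In iOL pairs, the middle of the gap was covered by RNAPII of iOL in 11.0% (9.80 to 12.3) of 2452 gaps, against 9.38% (8.58 to 10.2) of the middles of the flanking peaks. H3K27Ac of iOL covered 24.0% (22.3 to 25.8) of the gap middles against 81.5% (80.4 to 82.6) of the flanking middles. In OPC pairs, RNAPII of OPC covered 2.68% of 3138 gap middles against 2.06% of flanking middles, and H3K27Ac of OPC 21.6% against 74.7%. H3K27Ac peaks thus left the same dip as H3K4me3 peaks in most gaps, while RNAPII calls ran across it at both stages.

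**Figure D5:**
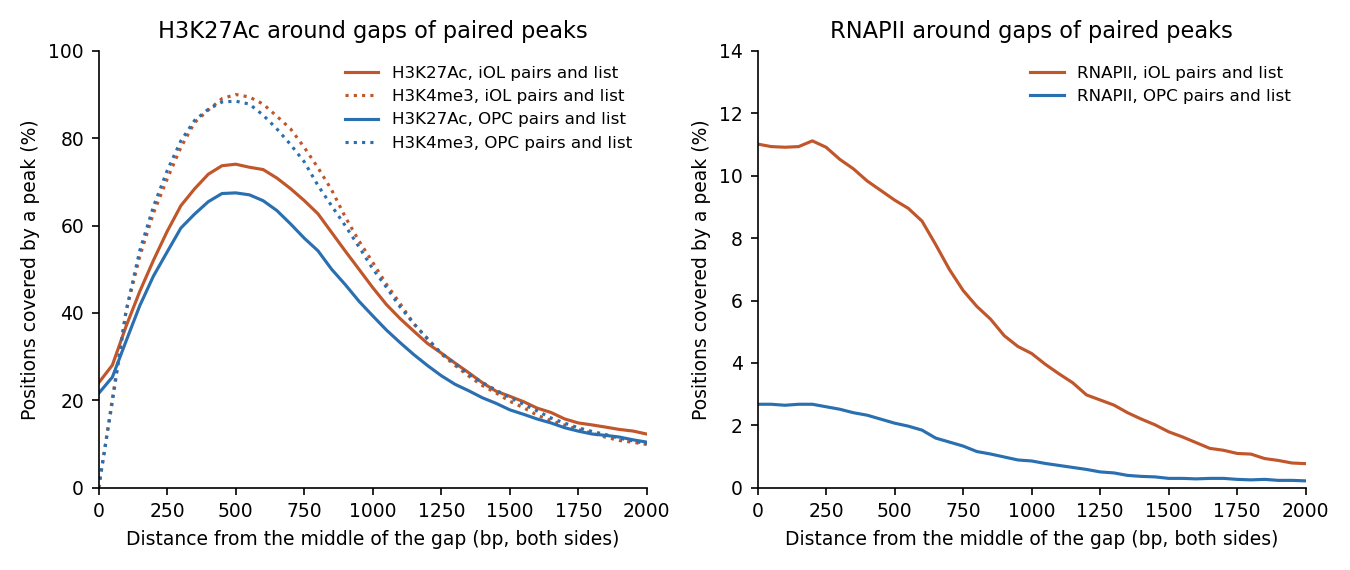
Marks around the gaps of neighbouring H3K4me3 peaks. The x axis is the distance in bp from the middle of the gap, both sides pooled, and the y axis is the percentage of positions covered by a peak of the list (iOL pairs with iOL lists, OPC pairs with OPC lists). H3K27Ac is 24.0% at the gap middle and 74.0% at 500 bp in iOL, and 21.6% and 67.5% in OPC; RNAPII is 11.0% at the gap middle and 4.30% at 1000 bp in iOL, and 2.68% and 0.860% in OPC.

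With distance the 2 marks kept different shapes. H3K27Ac coverage around iOL gaps was 74.0% at 500 bp, 45.8% at 1000 bp and 12.3% at 2000 bp from the gap middle, and around OPC gaps it was 67.5%, 39.3% and 10.5% at the same distances. RNAPII coverage was flat over the first 200 bp, at 11.1% in iOL and 2.68% in OPC, and was 0.775% in iOL and 0.223% in OPC at 2000 bp. RNAPII calls thus covered gap and flanks about alike at both stages and were rarer farther out. The RNAPII peaks had median widths of 1047 bp in iOL and 1039 bp in OPC, against median gaps of 270 and 266 bp. They therefore cannot place RNAPII in the gap rather than over the whole pair. Coverage was higher in iOL, which had the longer RNAPII list.

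Single regions illustrate the groups. The widest gained peak, chr10:56210229-56212590, measured 2362 bp and lay 3882 bp from the nearest OPC H3K4me3. It met H3K27Ac at both stages (2706 bp in iOL, 3411 bp in OPC), Olig2 at both stages and RNAPII in iOL only. The gained peak at chr18:24373906-24376041 measured 2136 bp and lay 272 bp from an OPC peak, and it met RNAPII and H3K27Ac at both stages and Olig2 in iOL only. The gained peak at chr12:19824595-19826322 measured 1728 bp, and it also met RNAPII and H3K27Ac at both stages and Olig2 in iOL only. All 3 were thus acetylated in OPC as well, where H3K4me3 was not called.

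The widest lost peaks carried less of these marks. The peak at chr7:131114195-131116628 measured 2434 bp in OPC and lay 453179 bp from the nearest iOL H3K4me3. H3K27Ac there measured 431 bp in iOL and 977 bp in OPC, Olig2 was called in OPC only, and RNAPII at neither stage. The peak at chr15:109713219-109715365 measured 2147 bp, with H3K27Ac (660 bp) and Olig2 in OPC only and a Brg1 peak in iOL only. The peak at chr6:57678154-57680281 measured 2128 bp and lay 1278 bp from an iOL peak, with H3K27Ac of 849 bp in iOL and 756 bp in OPC. All 3 met an H3K4me3 peak of mOL, with widths of 2570, 2304 and 2120 bp in that order.

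Of the widest kept regions, the first was 1077 bp wider in iOL and the second differed by -30 bp (iOL minus OPC). The third was the region at chr8:10160174-10165493 described above, with 1 iOL peak over 3 OPC peaks. At chr10:14816998-14823478 the H3K4me3 peak measured 6481 bp in iOL and 5404 bp in OPC, where the widest H3K27Ac peaks measured 6524 bp in iOL and 5401 bp in OPC, with RNAPII called in OPC only. At chr15:66389602-66396194 it measured 6475 bp in iOL and 6505 bp in OPC, with RNAPII at both stages. The widest pairs with RNAPII in iOL only were of similar width at both stages. They measured 5293 bp in iOL and 5215 bp in OPC at chr3:82246296-82251810. At chr15:90009112-90013968 the widths were 4574 bp in iOL and 4857 bp in OPC, and at chr13:51063258-51067794 they were 4061 bp in iOL and 4502 bp in OPC. Brg1 of iOL was present at the chr3 and chr13 regions of this set.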

How the data were processed

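Each of the 17 samples had 1 deposited file of 3 columns, the chromosome, start and end of the authors' peaks in bp, with no header, score or read number. The submitters' processing notes name MACS 1.4.0 and rn4, and the sources used here do not give the aligner, thresholds, control library or any pooling. Starts were made 1-based by adding 1. Overlap (at least 1 bp), neighbours (gap up to 2 kb), widths, edges and mark calls were computed with Python 3.11.15, numpy 2.4.6, pandas 2.3.3 and scipy 1.17.1. The scripts were tested on simulated lists with known overlaps and against bedtools 2.31.1. A mark was present at a peak or pair where any of its bases were covered; H3K27Ac widths are those of the widest peak met. Shares have exact Clopper-Pearson 95% intervals, and a count of 0 is given the limit of 3 counts. With 1 library per target and stage no test was made, and differences between cultures cannot be estimated. Regions named are the 3 widest or most different of each group on assembled chromosomes. Members and lists were chosen with earlier results of these data known. Alternatives were other overlap rules, equal-number lists, the middle 200 bp of peaks, the wider 50% of each list, and lists without unplaced sequence.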

Additional observations from a re-analysis of the deposited data

How the results depend on the processing

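With an overlap of 50% of the shorter peak, the gained share was 8.90%, the lost share 18.0%, the joined share 3.54%, the split share 2.43% and RNAPII of iOL at kept iOL peaks 9.80%. With peaks within 1000 bp counted as shared, these were 5.09%, 10.9%, 42.9%, 36.6% and 15.0% in the same order. With equal-number H3K4me3 lists, gained and lost were both 13.2%, joined 3.99%, gained peaks with H3K27Ac of iOL 55.7% and the median log2 width ratio -0.032. With the wider 50% of each list, gained was 16.7%, lost 25.8%, joined 2.02%, split 1.83%, H3K27Ac of iOL at gained peaks 78.1% and at lost peaks 69.7%, RNAPII of iOL at kept iOL peaks 16.5% and the log2 width ratio -0.0086. With the middle 200 bp of each peak, gained was 25.1%, lost 33.3%, H3K27Ac of iOL at gained peaks 68.2% and at lost peaks 55.7%, and RNAPII of iOL at kept iOL peaks 9.12%. With equal-number mark lists, added after the data were seen, H3K27Ac of iOL was met by 39.8% of gained and 30.4% of lost peaks and RNAPII of iOL by 3.05% of kept iOL peaks. The wider-list and middle settings leave fewer bases in which a partner can be met; other causes were not tested. Of the other main values under these settings, 17 moved by less than their interval, among them every value without unplaced sequence. Lost exceeded gained in the settings that keep lists of different length; equal-number lists give near-equal numbers by construction. No paired analysis was possible because each target and stage had 1 library. Depth is unknown, so a peak missing from a list was not called there and is not shown to be absent.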
